A study of Mus musculus with 468 samples.

Results

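The comparison is WT FGF21 against vehicle in the retroperitoneal white adipose tissue (RPWAT) of wild-type mice on chow (WT-chow), at 2 d and at 5 d of treatment. It was taken by its labels (depot, genotype, diet, agent and day) and comprised 17 of the 468 arrays of the series: 5 vehicle and 5 WT FGF21 mice at 2 d, and 3 vehicle and 4 WT FGF21 mice at 5 d. All were male C57BL/6 mice, 8 weeks old at treatment, dosed subcutaneously, BID, that is 2 times a day, with saline vehicle or with WT FGF21, the native, unmodified protein, at 1.25 mg/kg. The interval from the closing injection to dissection was about 6 h in both arms. The methods state 5 animals per group; the 5 d groups analysed here hold fewer arrays. The same depot of high-fat fed wild types (WT-HFD, C57BL/6) and of chow-fed db/db animals (db/db-chow, C57BLKS/J, which lack a working leptin receptor) is used below to show where the WT-chow response differed. Each gave 20 arrays of male mice, also 8 weeks old at treatment, with the same dose and days. The spread behind every test came from all 114 RPWAT arrays, in 24 groups. These include mice of each model given PEG30-FGF21 Q108, a pegylated FGF21, at 0.75 or 2.5 mg/kg and dissected about 30 h after the last dose.

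FGF21 is a circulating hormone of the fibroblast growth factor family. It acts on cells that carry an FGF receptor, in adipocytes mainly FGFR1, together with the co-receptor β-Klotho (Klb), and the receptor signals through FRS2 and the RAS and ERK kinases. ERK activity induces immediate early transcription factors and also the inhibitors that turn the pathway down again, the dual-specificity phosphatases (Dusp) and Sprouty proteins (Spry). In white fat FGF21 is known for effects on glucose uptake, lipid handling and energy expenditure. Retroperitoneal fat lies against the kidney and adrenal gland, and besides adipocytes it holds macrophages, endothelium, fibroblasts and, where nodes are included, lymphocytes.

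The arrays measured 43681 probe sets, 22163 of them the highest-signal probe set of a named gene, and a difference between group means was called when its adjusted p was under 0.05 and it was at least 1.2-fold (0.263 on the log2 scale). Values are log2 intensities, SE is that of the fitted log2 change, and adjusted p values are limma's with Benjamini-Hochberg adjustment over all probe sets. The mean level of 9 adipocyte markers lay between 12.01 and 12.24 in all 17 arrays, with adiponectin (Adipoq) at 12.56 to 12.76. Markers of neighbouring tissues varied much more from mouse to mouse: the mean of 12 skeletal muscle markers spanned 5.66 to 12.58, that of 11 kidney and adrenal markers 3.75 to 9.27 and that of 10 lymphocyte markers 4.74 to 8.60. Lymphocyte markers were highest in WT FGF21 replicates 3 and 4 at 2 d, at 7.98 and 8.60 against 5.04 to 5.86 in the other WT FGF21 mice of that day and 4.77 to 7.0 in vehicle mice. Kidney and adrenal markers were at 3.88 to 9.27 in WT FGF21 and 4.47 to 8.05 in vehicle mice at 2 d, and 3 of the 5 WT FGF21 mice were below every vehicle mouse. At 5 d these levels were 5.48, 7.47 and 7.43 in vehicle and 4.75, 3.75, 7.40 and 3.79 in WT FGF21 mice. Every treated mouse but replicate 3 was below every vehicle mouse of that day. The median change of the kidney and adrenal markers was −1.51 at 2 d and −2.34 at 5 d. None of the 11 kidney and adrenal markers and none of the 12 muscle markers passed the test on either day. In bulk tissue, fewer cells of a type and less RNA per cell cannot be told apart.

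**Figure D1:**
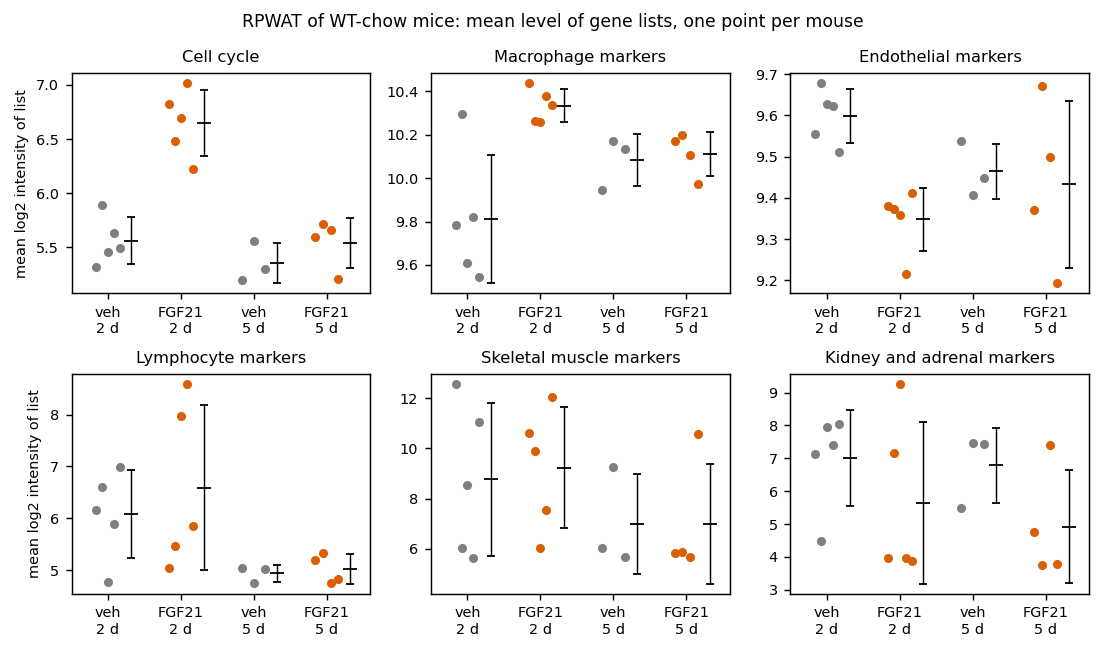
Mean log2 intensity of 6 gene lists (vertical axes) in RPWAT of WT-chow mice by treatment and day (horizontal axes; veh, vehicle); each point is a mouse, and the bar beside each group is its mean ± SD. Cell cycle genes of the 5 WT FGF21 mice at 2 d (6.23 to 7.02) sit above every other mouse (5.20 to 5.89), while the lymphocyte, muscle and kidney and adrenal levels overlap between groups.

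WT FGF21 changed 1675 of 43681 probe sets at 2 d (3.83%), 955 higher and 720 lower, and 904 at 5 d (2.07%), 700 higher and 204 lower. Counted as genes, 718 were higher (3.24% of those measured) and 464 lower (2.09%) at 2 d, and 435 were higher (1.96%) and 143 lower (0.645%) at 5 d. The counts of list members below are to be read beside these shares. Most called genes at 2 d, and the large majority at 5 d, had groups that did not overlap. Lack of overlap, given for single genes below, therefore adds little to a call, least of all at 5 d. The share is larger among brighter probe sets: with dim ones left out, 1966 were called at 2 d and 1057 at 5 d, although fewer were tested. Rises of Egr2, Itgad and Trib1 and a fall of Pnpla3 were among the largest of the called genes without overlap on both days. Most called genes, however, belonged to 1 day only. Of the genes higher at 2 d, 78 were also called higher at 5 d (10.9% of the 2 d genes and 17.9% of the 5 d genes), and of those lower at 2 d, 24 were also called lower at 5 d (5.17% and 16.8%). A few crossed over, with 7 genes higher at 2 d called lower at 5 d and 9 lower at 2 d called higher at 5 d. The change between days was tested directly as the 5 d response minus the 2 d response, each against its own vehicle group: 744 probe sets passed (1.70%), and 242 genes had a more positive response at 5 d (1.09%) and 291 a more negative one (1.31%). Of the 718 genes higher at 2 d, 185 had a response at 5 d that was smaller or turned, and 1 had a larger response. Without WT FGF21 replicate 4 the 2 d count was 1012. Without vehicle replicate 3 or 5 the 5 d count was 429 or 571, and when the spread was taken from the compared arrays alone the counts were 659 at 2 d and 122 at 5 d.

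**Figure D2:**
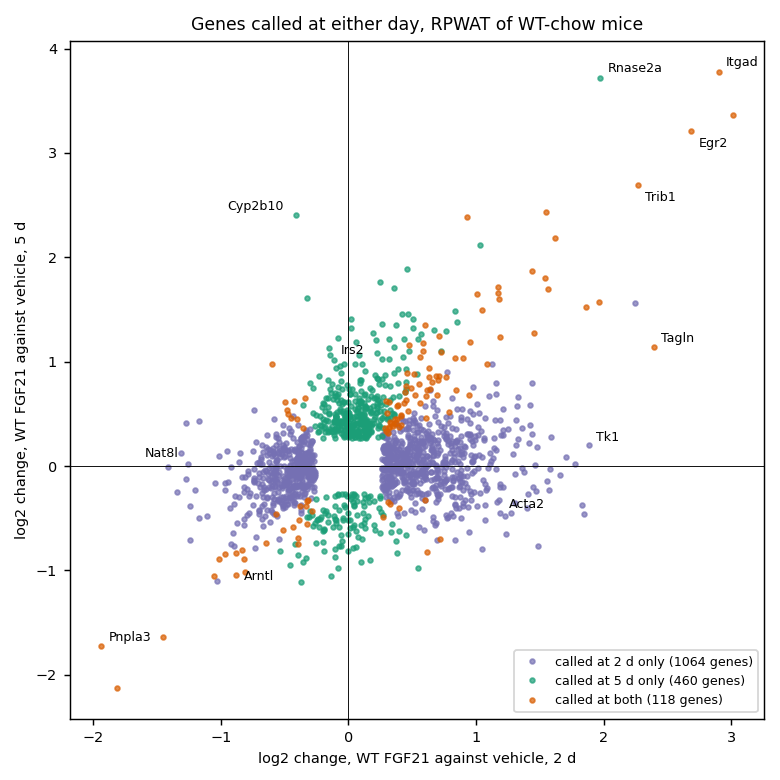
Log2 change under WT FGF21 against vehicle at 2 d (horizontal axis) and at 5 d (vertical axis) for each gene called on either day in RPWAT of WT-chow mice, coloured by the day of the call. The genes called on both days lie mainly along the diagonal at the upper right and lower left, and most genes called at 2 d only lie near 0 at 5 d.

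The receptor side of the pathway did not pass the test on either day: 0 of 13 FGF receptor, co-receptor and adaptor genes were called, with log2 changes of −0.16 (2 d) and −0.09 (5 d) for Fgfr1 and −0.39 and 0.24 for Klb. Of 17 feedback and ERK-induced genes, 5 were higher at 2 d and the same 5 at 5 d, Dusp4, Dusp6, Spry4, Maff and Fosl1, and none was lower. The list medians were 0.03 and 0.14, since Spry1, Spry2 and the Etv factors did not pass (Spry2 0.03 and 0.19, Etv5 0.19 and −0.09). Dusp4 encodes a nuclear phosphatase of ERK and related kinases. Its level was 8.16, 8.44, 8.46, 7.97 and 8.64 in the vehicle mice and 10.36, 10.91, 9.91, 10.16 and 10.15 in the WT FGF21 mice at 2 d, and 8.07, 8.59 and 7.97 against 10.07, 10.11, 8.94 and 10.001 at 5 d. Every treated mouse was above every vehicle mouse of its day, and WT FGF21 replicate 3 at 5 d was the lowest of the treated. The rise was 3.90-fold at 2 d (log2 1.96 ± 0.24) and 2.97-fold at 5 d (1.57 ± 0.30). Spry4, a Sprouty inhibitor of RAS and ERK signalling, was at 7.88, 8.59, 8.57, 8.43 and 8.36 in vehicle and 9.95, 9.98, 9.90, 9.61 and 10.09 in WT FGF21 mice at 2 d, and at 8.06, 8.24 and 8.41 against 10.16, 10.24, 9.90 and 9.83 at 5 d. The 2 groups were more than 1 log2 unit apart at both days, with a rise of 1.54 ± 0.17 at 2 d and 1.80 ± 0.21 at 5 d. Dusp6, the cytoplasmic ERK phosphatase, rose less (0.63 ± 0.13, adjusted p = 5.45e-04, and 0.85 ± 0.16, adjusted p = 1.88e-04). Maff, a small MAF transcription factor, rose by 1.46 ± 0.18 and 1.27 ± 0.22, and Fosl1, a FOS family member named after its values were seen, by 1.56 ± 0.38 and 1.69 ± 0.46. For none of these 5 did the difference between days pass.

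Among 18 immediate early transcription factors, Egr1, Egr2 and Ier2 rose on both days, Klf6 and Myc passed at 2 d and Btg2 at 5 d, and Fosb (−1.41) and Jun (−0.45) fell at 2 d. The count of members lower at 2 d was 0 without vehicle replicate 4 or 5 or WT FGF21 replicate 4 and 1 without any one of 5 other arrays. Fos itself did not pass (0.77 and 0.98). The list median was 0.01 on both days. Egr2, a zinc finger factor, was at 7.37, 8.51, 7.41, 8.34 and 7.90 in vehicle mice and at 10.64, 10.58, 10.41, 10.22 and 11.10 in WT FGF21 mice at 2 d. At 5 d it was at 7.60, 7.84 and 8.45 against 11.63, 10.90, 10.78 and 11.38. The lowest treated mouse was thus well above the highest vehicle mouse at each day, and the rise was 6.43-fold (2.68 ± 0.33, adjusted p = 5.26e-09) and 9.28-fold (3.21 ± 0.40, adjusted p = 1.84e-08). Egr1 varied widely among vehicle mice, 9.84 to 11.83 at 2 d and 10.09 to 12.06 at 5 d, and narrowly among treated mice, 12.26 to 12.50 and 12.49 to 12.78; the groups did not overlap, and the rise was 1.44 ± 0.31 and 1.87 ± 0.37. Ier2 rose by 1.18 ± 0.18 and 1.60 ± 0.22 on its brightest probe set, while a dim second probe set did not pass (0.10 and −0.37). Btg2 at 5 d lost its call without vehicle replicate 1 or 3 or WT FGF21 replicate 1, and its second probe set did not pass either.

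The Egr2 promoter is shown because this gene had one of the largest rises on both days and immediate early promoters are known for serum response elements. The window runs from 250 bases before to 50 bases after a RefSeq transcript start (GRCm38.p6), 5′ to 3′, and the capitals mark the single match to the CArG box, the sequence bound by serum response factor, searched on both strands.
Egr2, chr10:67537619-67537918, plus strand: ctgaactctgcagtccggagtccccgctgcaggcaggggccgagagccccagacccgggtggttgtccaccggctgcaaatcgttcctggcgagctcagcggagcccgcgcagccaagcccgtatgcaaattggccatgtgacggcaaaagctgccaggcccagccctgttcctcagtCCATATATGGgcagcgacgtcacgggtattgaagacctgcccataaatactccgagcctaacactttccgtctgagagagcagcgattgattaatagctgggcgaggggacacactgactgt
Of 27025 genes with such a window, 488 (1.81%) held a CArG box, among them 1 of 14 immediate early factors (Egr2) and 1 of 12 feedback genes. A match is a description of the letters and not a bound site.

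Trib1, a pseudokinase that marks proteins for degradation, behaved like Egr2 with less spread. It was at 7.30, 7.39, 6.94, 7.28 and 7.58 in vehicle and 9.82, 9.70, 9.33, 9.32 and 9.66 in WT FGF21 mice at 2 d, and at 7.38, 7.25 and 7.46 against 10.36, 10.02, 9.67 and 10.17 at 5 d. Each group stayed within about 1 log2 unit and the 2 treatments did not overlap: 2.27 ± 0.21 (4.81-fold, adjusted p = 1e-13) and 2.69 ± 0.26 (6.47-fold, adjusted p = 7.02e-13). Itgad, the integrin alpha D chain of leukocytes, was at 5.81, 6.76, 4.92, 5.13 and 5.51 in vehicle and 8.44, 8.52, 8.49, 8.46 and 8.74 in WT FGF21 mice at 2 d, and at 5.37, 5.12 and 5.42 against 8.95, 10.06, 9.66 and 7.65 at 5 d. Treated mice were nearly alike at 2 d and spread over more than 2 log2 units at 5 d, all above the vehicle mice. Macrophage markers, whose part in the Itgad rise was not tested, were higher at 2 d and not at 5 d, as given below. Arc, an activity-induced gene, rose by 1.54 ± 0.33 and 2.43 ± 0.40, Krt79, a keratin, by 1.62 ± 0.20 and 2.19 ± 0.25, and Fam110c by 1.86 ± 0.26 and 1.52 ± 0.31, each without overlap of the groups.

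**Figure D3:**
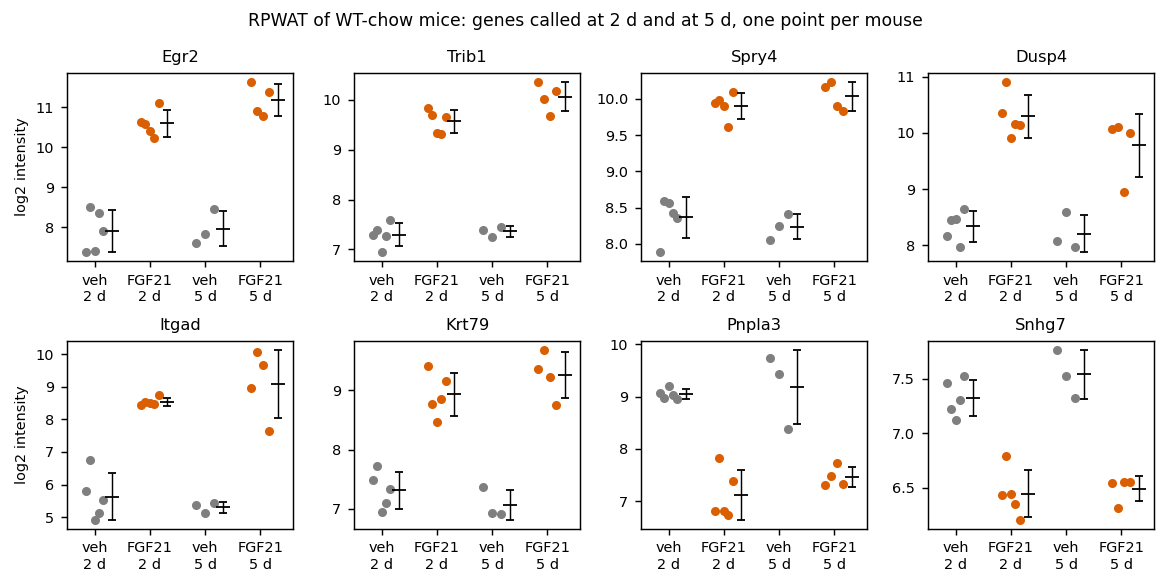
Log2 intensity (vertical axes) of 8 genes called on both days, by treatment and day (horizontal axes; veh, vehicle); each point is a mouse, and the bar beside each group is its mean ± SD. In each panel the WT FGF21 mice lie entirely above, or for Pnpla3 and Snhg7 entirely below, the vehicle mice of the same day. The largest rises and falls were named only among called genes without overlap, so for those genes the separation was a condition of choice.

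Fewer genes fell on both days. Pnpla3, a lipid droplet protein whose expression follows lipogenic signals, had the largest fitted fall of the called genes whose groups did not overlap, on each day. It was at 9.07, 8.97, 9.21, 9.04 and 8.96 in vehicle and 6.82, 7.82, 6.80, 6.73 and 7.39 in WT FGF21 mice at 2 d, and at 9.74, 9.44 and 8.38 against 7.31, 7.48, 7.72 and 7.33 at 5 d. The vehicle mice of 2 d were nearly alike, and no treated mouse reached a vehicle level on either day (−1.94 ± 0.23, 3.83-fold lower, and −1.72 ± 0.28, 3.31-fold lower). Snhg7, a host gene of small nucleolar RNAs, fell by 0.88 ± 0.14 and 1.05 ± 0.17. Slc25a1, the mitochondrial citrate carrier that supplies lipogenesis, fell by 0.96 ± 0.19 and 0.84 ± 0.23, and Gsta3, a glutathione S-transferase, fell by 0.81 ± 0.22 and 1.01 ± 0.27. The 5 d calls of Slc25a1 and Gsta3 were lost without vehicle replicate 1 or 3 or WT FGF21 replicate 2, and that of Slc25a1 also without WT FGF21 replicate 1 or 3.

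Of 14 heat shock chaperone genes, only the inducible HSP70 pair passed at 2 d, and with Hsp90ab1 at 5 d, all lower. Hspa1b was at 8.43, 7.16, 9.58, 9.12 and 8.48 in vehicle and 6.43, 7.51, 6.77, 6.20 and 6.80 in treated mice at 2 d, and at 9.97, 8.10 and 9.60 against 6.20, 8.43, 6.92 and 6.85 at 5 d. One vehicle mouse was low and replicate 2 of the treated mice was high on each day, so that the groups overlapped (−1.81 ± 0.37, adjusted p = 5.45e-04, and −2.12 ± 0.45, adjusted p = 0.00166). Hspa1a gave −1.45 ± 0.26 and −1.64 ± 0.32. The 2 genes are near-identical copies whose probes may not tell them apart, so they are not separate evidence. Without vehicle replicate 1 neither passed at 5 d (adjusted p = 0.0649 for Hspa1a and 0.0518 for Hspa1b).

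Cell cycle genes rose at 2 d. Of 14 members 13 passed, all but the centromere histone Cenpa, with a median change of 1.13 against −0.0063 over all genes, and none passed at 5 d (median 0.32). Mki67, the proliferation marker Ki-67, was at 6.52, 7.01, 6.23, 6.95 and 6.82 in vehicle and 8.37, 7.85, 8.18, 8.79 and 7.44 in WT FGF21 mice at 2 d, without overlap (1.42 ± 0.26, adjusted p = 1.04e-04). At 5 d it was at 6.18, 6.59 and 5.88 against 6.91, 6.88, 6.65 and 6.02, with overlap (0.40 ± 0.32, adjusted p = 0.654), and the 5 d response minus the 2 d response was −1.03 (adjusted p = 0.23). Other mitotic genes at 2 d were the spindle checkpoint kinase Bub1 (1.77 ± 0.29), DNA topoisomerase Top2a (1.36 ± 0.22) and the Aurora kinase Aurkb (1.25 ± 0.20). The DNA synthesis enzyme Tk1, thymidine kinase, rose by 1.88 ± 0.29. The difference between days passed for 4 of the 14 members and for Tk1 (−1.68 ± 0.46).

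The MCM proteins form the helicase that opens DNA for replication, and Mcm2 to Mcm7 all rose at 2 d and not at 5 d. Mcm3 was at 6.02, 6.24, 6.17, 6.21 and 6.11 in vehicle and 7.32, 7.24, 7.29, 7.61 and 7.24 in WT FGF21 mice at 2 d, and at 6.41, 6.61 and 6.22 against 5.91, 6.63, 6.40 and 5.89 at 5 d. The 2 d groups were each tight and a full log2 unit apart, and the 5 d groups overlapped. The 2 d rises were 1.19 ± 0.12 for Mcm3 (2.28-fold, adjusted p = 1.05e-11), 1.47 ± 0.17 for Mcm5, 1.21 ± 0.14 for Mcm6, 0.77 ± 0.07 for Mcm7, 0.68 ± 0.08 for Mcm4 and 0.82 ± 0.18 for Mcm2. The responses at 5 d were between −0.48 (Mcm2) and −0.01 (Mcm7), and the difference between days passed for each, from −0.78 for Mcm7 to −1.71 for Mcm5. A dim second probe set of Mcm6 did not pass at 2 d (0.47, adjusted p = 0.0529). Uhrf1, which maintains DNA methylation behind the replication fork, moved the same way (1.41 ± 0.15 at 2 d and −0.27 ± 0.19 at 5 d).

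Promoter windows of 3 MCM genes are shown because these genes rose together at 2 d and are known targets of E2F factors. They are RefSeq windows (GRCm38.p6) from 250 bases before to 50 bases after a transcript start, 5′ to 3′, with matches to TTTCCCGC, TTTCGCGC or TTTGGCGC on either strand in capitals; adjoining capitals are overlapping matches.
Mcm3, chr1:20820263-20820562, minus strand: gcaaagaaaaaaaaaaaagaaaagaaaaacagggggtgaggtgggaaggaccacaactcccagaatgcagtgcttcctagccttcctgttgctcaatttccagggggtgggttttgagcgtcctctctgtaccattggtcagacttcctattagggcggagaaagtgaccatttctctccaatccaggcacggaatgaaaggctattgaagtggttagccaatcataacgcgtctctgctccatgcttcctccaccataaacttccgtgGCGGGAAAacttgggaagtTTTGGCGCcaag
Mcm5, chr8:75109259-75109558, plus strand: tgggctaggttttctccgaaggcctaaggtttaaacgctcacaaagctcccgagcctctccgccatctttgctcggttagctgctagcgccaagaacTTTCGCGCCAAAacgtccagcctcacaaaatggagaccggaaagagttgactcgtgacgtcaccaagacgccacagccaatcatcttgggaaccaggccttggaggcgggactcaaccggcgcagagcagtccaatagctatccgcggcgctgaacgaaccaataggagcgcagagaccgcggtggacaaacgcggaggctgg
Mcm6, chr1:128359656-128359955, minus strand: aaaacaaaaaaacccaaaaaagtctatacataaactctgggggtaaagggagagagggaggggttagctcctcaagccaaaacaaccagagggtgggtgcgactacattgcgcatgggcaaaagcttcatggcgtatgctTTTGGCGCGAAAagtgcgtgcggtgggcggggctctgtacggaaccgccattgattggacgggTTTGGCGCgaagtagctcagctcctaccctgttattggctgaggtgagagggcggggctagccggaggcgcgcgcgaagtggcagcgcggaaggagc
The motifs stood in 4 of the 5 MCM genes with a window (80.0%), against 573 of 27025 genes (2.12%), and in 2 of 12 cell cycle list members with a window (16.7%). Mcm3 and Mcm5 held 2 matches and Mcm6 held 3. Among windows not shown, those of Tk1 and Rrm2 held 0 and that of Cdk1 held 1. Windows at different starts of Mcm7 held 2 and 0, and those of Uhrf1 held 0 and 1. The MCM genes were chosen as known E2F targets, so their share is not independent evidence. The search describes letters in a window and not binding.

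The mean level of the cell cycle list at 2 d was 6.70 and 7.02 in WT FGF21 replicates 3 and 4, the 2 mice with the highest lymphocyte markers, 6.83, 6.49 and 6.23 in the other treated mice and 5.32 to 5.89 in vehicle mice. Replicate 4 was thus the highest mouse for both lists, and the 3 treated mice of lower lymphocyte markers were also above every vehicle mouse in the cell cycle list. Without these 2 arrays 9 of 14 members were called, and with the lymphocyte, muscle and kidney and adrenal levels as covariates 13 were; leaving out any 1 array gave 12 to 13. Over all probe sets at 2 d these 2 alternatives, both chosen after seeing the data, called 850 and 1217.

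Macrophage markers rose at 2 d as well, 8 of 12 (median 0.47), against 1 at 5 d (median −0.05). Cd68, Adgre1 (F4/80), the mannose receptor Mrc1, the Fc receptor chain Fcer1g, the complement genes C1qa, C1qb and C1qc, and the haemoglobin scavenger receptor Cd163 passed, while Lyz2, Tyrobp, Csf1r and Itgam did not (0.16 to 0.57). Mrc1 was at 10.21, 10.52, 9.86, 10.25 and 10.05 in vehicle and 10.98, 10.90, 10.80, 10.85 and 10.83 in WT FGF21 mice at 2 d, and at 10.38, 10.46 and 10.43 against 10.38, 10.28, 10.36 and 10.25 at 5 d. The 2 d groups did not overlap (0.69 ± 0.11), and vehicle replicate 2 was the highest vehicle mouse. Its list mean of 10.30 lay among the treated mice (10.26 to 10.44), where the other vehicle mice were at 9.54 to 9.82, and the vehicle mice of 5 d at 9.95 to 10.17. Cd163 was the marker called at 5 d (0.57 ± 0.14, and 0.38 ± 0.11 at 2 d); it lost the 5 d call without vehicle replicate 1 or 5, and the 2 d call without vehicle replicate 1, 3 or 5 or WT FGF21 replicate 1 or 5. Without vehicle replicate 3 at 2 d 5 of the 12 were called, without the 2 arrays of high lymphocyte markers 6, and with the spread of the compared arrays alone 3. The difference between days passed for 2 of the 12, Mrc1 (−0.79 ± 0.17) and Fcer1g (−0.86 ± 0.24). Of 20 chemokine and acute phase genes 4 rose at 2 d, among them the chemokines Ccl11 (0.80 ± 0.20, not called without vehicle replicate 3), Ccl6 (0.50) and Ccl9 (0.49), and 1 rose at 5 d. The 2 d count was 1 without vehicle replicate 3, 2 without any one of 5 other arrays and at most 6, and Ccl2 (1.07) and Tnf (0.41) did not pass.

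Of 19 interferon and MHC genes, Mx1, Ifit3, Usp18 and Rsad2 rose at 2 d (median 0.20), Ifit3 alone fell at 5 d (median −0.25), and the difference between days passed for 6, all more negative at 5 d. Mx1, an antiviral GTPase, was at 6.41, 6.48, 5.99, 5.85 and 6.13 in vehicle and 7.39, 7.0, 6.85, 7.99 and 6.96 in treated mice at 2 d, and at 6.61, 7.09 and 6.95 against 6.58, 6.54, 6.23 and 6.12 at 5 d. The vehicle mice of 5 d were above those of 2 d. Its 2 d rise was 1.07 ± 0.21 and the difference between days −1.58 ± 0.33. WT FGF21 replicate 4, one of the 2 arrays with high lymphocyte markers, was the highest mouse for Mx1, Ifit3 and Usp18; without it 1 of the 19 was called, and without vehicle replicate 4 or 5 2 were. Ifit3 at 5 d lost its call without vehicle replicate 3 or 5 or WT FGF21 replicate 1, 3 or 4.

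Of 16 genes of the unfolded protein response, 5 rose at 2 d: Ddit3 (CHOP), Sdf2l1, Hsp90b1, Calr and Xbp1. Ddit3 rose on both days (0.70 ± 0.11 and 0.68 ± 0.13), while Sdf2l1, an endoplasmic reticulum chaperone partner, rose at 2 d (0.80 ± 0.15) and was at −0.45 ± 0.18 at 5 d (difference −1.25 ± 0.24, adjusted p = 5.74e-04). Hspa5, the main chaperone of the compartment, was at 0.26 at 2 d (adjusted p = 0.0236, but 1.19-fold and so under the fold threshold) and −0.24 at 5 d. The difference between days passed for 5 of the 16, all more negative at 5 d. The count at 2 d was 3 without vehicle replicate 2 or WT FGF21 replicate 1 or 4 and 2 without vehicle replicate 5. Creld2 was the member lower at 5 d (−0.47, adjusted p = 0.049), a call that every left-out array except WT FGF21 replicate 2 removed.

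A pair of contractile genes rose steeply at 2 d. Tagln (SM22) was at 8.60, 8.39, 7.91, 7.83 and 8.08 in vehicle and 10.72, 10.26, 10.51, 10.43 and 10.85 in WT FGF21 mice (2.39 ± 0.22, 5.26-fold, adjusted p = 8.97e-14), and at 8.51, 8.31 and 8.09 against 9.94, 9.25, 9.26 and 9.31 at 5 d (1.14 ± 0.27). Acta2, smooth muscle actin, was at 8.58, 8.53, 7.84, 8.12 and 8.55 against 10.07, 9.99, 9.95, 9.81 and 9.64 at 2 d (1.57 ± 0.20), and at 8.57, 8.39 and 7.97 against 8.04, 7.96, 7.92 and 8.41 at 5 d (−0.23). Both groups were apart at 2 d, and for Tagln also at 5 d, where leaving out vehicle replicate 5 or WT FGF21 replicate 1 removed the call. The other 4 smooth muscle markers did not pass (Myh11 −0.53, Cnn1 −0.41, Rgs5 −0.16 and Des −0.06 at 2 d), so that the list median was −0.11. Hspb7, a small heat shock protein of muscle and heart, rose by 2.25 ± 0.54 at 2 d; skeletal muscle markers spanned 5.66 to 12.58 in vehicle and 6.04 to 12.03 in treated mice of that day, and their part in this rise was not tested. Among 20 collagen and matrix genes Lox, the lysyl oxidase that cross-links collagen, rose at 2 d (0.65 ± 0.15), as did Col15a1 and Col4a2. That count of 3 was 9 without vehicle replicate 2 and 1 without vehicle replicate 1 or WT FGF21 replicate 1 or 5.

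Of 8 endothelial markers 3 fell at 2 d and none rose. The VEGF receptors Kdr and Flt1 and the sialomucin Emcn fell, and Pecam1 (0.04), Cdh5 (0.02) and the remaining 3 did not pass; none passed at 5 d. Kdr was at 9.78, 9.78, 9.78, 9.74 and 9.82 in vehicle and 9.33, 9.45, 9.28, 9.06 and 9.23 in WT FGF21 mice at 2 d (−0.51 ± 0.10), and at 9.40, 9.48 and 9.43 against 9.46, 9.50, 9.47 and 9.32 at 5 d (0.00 ± 0.12). The 5 d vehicle mice were below every 2 d vehicle mouse, at the level of the highest treated mice of 2 d, and the difference between days did not pass for Kdr (adjusted p = 0.0737). Flt1 fell by 0.58 ± 0.10 at 2 d, and its difference between days passed (0.70 ± 0.15); a dimmer probe set of Flt1 did not pass (−0.48). Emcn lost its call without vehicle replicate 3 or 4 or WT FGF21 replicate 4.

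**Figure D4:**
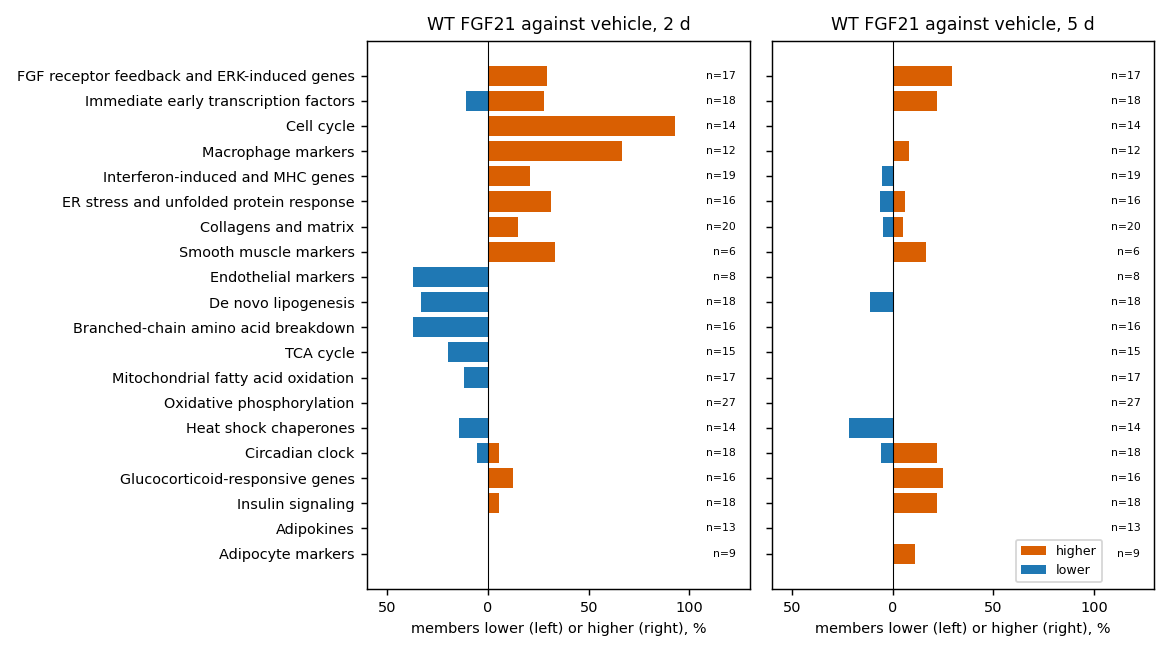
Share of the measured members of 20 gene lists called lower (bars to the left) or higher (bars to the right) under WT FGF21 in the 2 d and the 5 d mice, in percent; n is the number of members measured. Cell cycle (13 of 14) and macrophage markers (8 of 12) have the longest bars at 2 d and 0 and 1 called members at 5 d, while feedback genes have 5 of 17 on both days. Over all genes 3.24% were higher and 2.09% lower at 2 d, and 1.96% and 0.645% at 5 d.

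Of 18 lipogenic genes 6 fell at 2 d and none rose (median −0.60): Pnpla3 and Slc25a1, described above, both acetyl-CoA carboxylases Acaca and Acacb, the lipogenic regulator Thrsp and the acetoacetyl-CoA synthetase Aacs. Acacb was at 11.53, 10.56, 11.06, 11.18 and 11.74 in vehicle and 9.69, 10.63, 10.32, 9.83 and 10.38 in treated mice, overlapping through vehicle replicate 2 (−1.04 ± 0.22, adjusted p = 9.75e-04). Thrsp was at 12.65, 12.53, 12.64, 12.67 and 12.73 against 11.98, 12.37, 12.02, 12.05 and 11.81, without overlap (−0.60 ± 0.09, adjusted p = 3e-06). Fatty acid synthase Fasn (−0.51), Acly (−0.67), Scd1 (−0.01) and Srebf1 (−0.45) did not pass. Without vehicle replicate 2 at 2 d 11 of the 18 were called lower. At 5 d only Pnpla3 and Slc25a1 passed, while the median stayed at −0.48, and no member differed between days; the 5 d count was 1 to 4 with single arrays left out, 4 without WT FGF21 replicate 4. Genes of fat breakdown and storage did not pass at 2 d (0 of 13 lipolysis and lipid droplet genes).

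Of 16 genes of branched-chain amino acid breakdown 6 fell at 2 d (median −0.285), led by Bckdha, a subunit of the branched-chain ketoacid dehydrogenase, at 9.74, 9.62, 9.56, 9.60 and 10.07 in vehicle and 9.08, 9.25, 9.20, 8.96 and 9.27 in treated mice (−0.56 ± 0.11, adjusted p = 2.47e-04). Ivd, Mccc1, Auh, Pcca and Pccb were the others, and dimmer probe sets of Auh did not pass (−0.09 and −0.005). None passed at 5 d (median −0.08). The count was 2 without WT FGF21 replicate 4, 3 without vehicle replicate 5 and 1 without both arrays of high lymphocyte markers. Of 15 tricarboxylic acid cycle genes 3 fell (Pcx, Ogdh and Idh3g, median −0.28), 1 to 6 with single arrays left out and 0 without the 2 arrays. Of 17 genes of mitochondrial fatty acid oxidation Acads (−0.40) and Hadh (−0.56) fell at 2 d, 1 to 6 with single arrays left out (6 without vehicle replicate 2, 5 without vehicle replicate 3 and 1 without vehicle replicate 1 or 5), and none passed at 5 d. Of 27 oxidative phosphorylation subunits none passed, with a median of −0.21 at 2 d and −0.03 at 5 d. Their mean level was 10.62, 10.18, 10.23, 10.49 and 10.87 in vehicle and 10.20, 10.43, 10.39, 10.20 and 10.17 in treated mice at 2 d. The mean of 18 thermogenic and brown fat genes was 8.48, 6.08, 6.71, 8.03 and 8.995 in vehicle and 6.37, 8.26, 8.25, 7.47 and 7.21 in treated mice. The vehicle mice stood in the same order on both lists and spanned almost 3 log2 units on the thermogenic one, whose part in these falls was not tested.

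Other genes that were called lower at 2 d and not at 5 d included Nat8l, which makes N-acetylaspartate in adipocytes, at 9.64, 9.73, 9.57, 9.38 and 9.82 against 8.29, 8.42, 8.42, 8.21 and 8.51 (−1.26 ± 0.25), with 5 d levels of 9.82, 9.62 and 9.17 against 9.55, 9.71, 9.33 and 9.64 (0.02). The uncoupling protein Ucp3 fell by 0.97 ± 0.18, the pantetheinase Vnn1 by 1.17 ± 0.27, the MYC family gene Mycl by 1.35 ± 0.30, the rhomboid protease Rhbdl1 by 1.27 ± 0.16 and the neurotensin receptor Ntsr2 by 1.2 ± 0.26. Of these 6, Rhbdl1 (1.15 ± 0.24) and Vnn1 (1.60 ± 0.43) differed between days by the test; for Nat8l, Ucp3, Mycl and Ntsr2 the difference did not pass (adjusted p = 0.0654, 0.148, 0.273 and 0.247). Nat8l, Ucp3 and Vnn1 are also on the marker lists of the study that are counted below.

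Of 18 insulin signalling genes 4 rose at 5 d, Irs2, Foxo1, Foxo3 and Trib1, of which Trib1 also rose at 2 d. The difference between days passed for 1 of these 18, for 1 of 18 clock genes and for none of 16 glucocorticoid-responsive genes. Irs2, the insulin receptor substrate, was at 7.49, 7.99, 7.66, 7.82 and 7.89 against 7.88, 7.35, 7.78, 7.36 and 7.93 at 2 d and at 7.06, 7.28 and 7.94 against 8.34, 9.12, 8.13 and 8.18 at 5 d. The groups overlapped fully at 2 d and not at 5 d (1.02 ± 0.22, 2.02-fold, adjusted p = 0.00187), and the difference between days was 1.13 ± 0.28 (adjusted p = 0.0143). Its second probe set gave 0.64 (adjusted p = 0.0502), and without vehicle replicate 1 the call was lost (adjusted p = 0.0562). Without vehicle replicate 1 or 3 the list had 2 called members. Dimmer probe sets of Foxo1 (0.33, adjusted p = 0.108) and Foxo3 (−0.08, −0.20 and 0.25) did not pass at 5 d. Of 18 clock genes, the output factors Dbp (1.46 ± 0.38) and Tef (0.76 ± 0.17), the repressor Nr1d1 (0.86 ± 0.22) and Per3 (0.94) rose at 5 d and the activator Arntl fell (−0.95); at 2 d Nr1d1 rose (0.76 ± 0.18) and Cry2 fell (−0.30), a call lost without vehicle replicate 1, 2 or 3 or WT FGF21 replicate 3 or 4. Tef was at 7.26, 7.42 and 7.39 in vehicle and 8.10, 8.33, 8.11 and 7.91 in WT FGF21 mice at 5 d. Treated mice were above all vehicle mice of that day, though the vehicle mice of 2 d spanned 7.24 to 8.10. The count of 4 was 1 without vehicle replicate 1 and 2 without vehicle replicate 3 or 5 or WT FGF21 replicate 1 or 2. Arntl lost its call without vehicle replicate 1 and did not pass on its second probe set (−0.04).

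Of 16 glucocorticoid-responsive genes 4 rose at 5 d, the zinc finger factor Zbtb16, the chaperone Fkbp5 and the metallothioneins Mt1 and Mt2, and both metallothioneins at 2 d. Zbtb16 was at 8.84, 8.41 and 8.79 in vehicle and 9.96, 9.60, 9.86 and 10.17 in treated mice at 5 d (1.22 ± 0.23, 2.33-fold, adjusted p = 3.65e-04); its second probe set did not pass (0.11). The other 12 members did not pass, among them Tsc22d3 (0.13) and Per1 (0.75). The count was 1 without vehicle replicate 3 and 2 without vehicle replicate 1 or WT FGF21 replicate 1, 3 or 4. None of the 11 kidney and adrenal markers, whose part was not tested, passed, and their median change was −2.34 at 5 d.

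Of 15 genes of lipid uptake and fatty acid activation, Fabp5 and Acsl1 rose at 5 d, when 1.96% of all genes did, and none at 2 d. Fabp5, a fatty acid binding protein, was at 6.88, 6.79 and 6.18 in vehicle and 7.61, 8.36, 7.84 and 7.94 in WT FGF21 mice at 5 d (1.32 ± 0.20, 2.50-fold, adjusted p = 2.96e-06). Acsl1, the main long-chain acyl-CoA synthetase of adipocytes, was at 10.79, 10.60 and 10.58 against 11.34, 11.38, 11.15 and 11.39 (0.66 ± 0.12). Both were free of overlap at 5 d, and the difference between days did not pass for either (adjusted p = 0.0812 and 0.195). The hormone-sensitive lipase Lipe (0.40 ± 0.10), which lost its call without vehicle replicate 5 or WT FGF21 replicate 2, and Chac1, a glutathione-degrading target of ATF4 (1.32 ± 0.26, against 0.02 at 2 d, difference 1.31 ± 0.33), also rose. Fgf13, an intracellular FGF family member, rose by 1.70 ± 0.38 on 1 of 2 probe sets, and endogenous Fgf21 by 0.69 ± 0.18 from a low level (4.41, 4.88 and 4.60 against 4.99, 5.83, 5.05 and 5.40); the Fgf21 call was lost without vehicle replicate 1 or 5 or WT FGF21 replicate 2 or 4. Of the called genes whose groups did not overlap at 5 d, Rnase2a, an eosinophil-type ribonuclease, had the largest fitted rise after Itgad. It was at 5.03, 6.11 and 5.80 in vehicle and 8.72, 8.83, 10 and 9.91 in treated mice (3.72 ± 0.81, 13.17-fold, adjusted p = 0.00248). At 2 d its vehicle mice were already at 6.47 to 9.01 and the rise of 1.97 did not pass (adjusted p = 0.0746). S1pr3, a sphingosine 1-phosphate receptor, fell at 5 d by 0.98 ± 0.15 and was at −0.09 at 2 d (difference −0.89 ± 0.20); its dim second probe set did not pass.

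Lists with few or no called members included some that define white fat. None of 13 adipokines passed on either day, with Adipoq at −0.06 and −0.05 and leptin (Lep) at 0.34 and 0.22. Of 18 thermogenic genes none passed at 2 d and only Bmp8b at 5 d (0.73 ± 0.19), a call lost without vehicle replicate 1, 3 or 5 or WT FGF21 replicate 4; Ucp1 was at 0.10 and 0.55. None of 19 cholesterol synthesis genes passed. Pparg, the master regulator of adipocyte differentiation, rose by 0.40 ± 0.09 at 2 d and 0.37 ± 0.11 at 5 d, the latter call being lost without vehicle replicate 1 or 5 or WT FGF21 replicate 1, 2 or 4. The 2 marker lists named by the study were also counted. Of 32 genes on its list of adipose response markers 7 were higher and 12 lower at 2 d and 11 higher and 5 lower at 5 d, and of 21 genes for secreted proteins 2 and 5 and then 2 and 0. The study chose both lists on arrays that include these samples, so the counts are not independent evidence.

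Set against WT-HFD mice, the response of WT-chow mice differed in 635 probe sets at 2 d (1.45%; 173 genes more positive in WT-HFD, 0.781%, and 298 more negative, 1.34%) and in 1 probe set at 5 d (0.00229%), Vwa3a. The 2 d count rests heavily on single arrays: it was 86 without the 2 WT FGF21 arrays of high lymphocyte markers and 190 without replicate 4 alone. At 5 d, 3209 probe sets had an unadjusted p under 0.05, and the Vwa3a call was lost without vehicle replicate 3 or 5 or WT FGF21 replicate 1, 2 or 3, and with the replicate number as a block. Set against db/db-chow mice, 429 probe sets differed at 2 d (0.982%; 76 genes more positive in db/db-chow, 0.343%, and 245 more negative, 1.11%) and 232 at 5 d (0.531%; 64 and 90 genes, 0.289% and 0.406%). The 2 d count was 210 without WT FGF21 replicate 4 and the 5 d count 54 without vehicle replicate 3.

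The cell cycle response at 2 d was smaller in both other models for part of the list. At 2 d none of the 14 members passed in WT-HFD (median 0.12) or in db/db-chow mice (median −0.13). The difference from WT-chow passed for 5 and for 10 members, all more negative, and not for the others. These counts are not given without the 2 WT FGF21 arrays of high lymphocyte markers. One of them, replicate 4, had the highest cell cycle level. Mcm3 was at 0.06 ± 0.12 in WT-HFD and −0.17 ± 0.12 in db/db-chow mice against 1.19 in WT-chow mice, differences of −1.13 ± 0.18 (adjusted p = 4.32e-05) and −1.35 ± 0.18 (adjusted p = 5.41e-07). No macrophage marker passed at 2 d in either model, and the difference passed for 3 of 12 in each. The comparisons with WT-HFD and with db/db-chow mice share the WT-chow arrays. Tagln also rose at 2 d in WT-HFD mice (2.33) and was at 0.12 in db/db-chow mice (difference −2.28 ± 0.31, adjusted p = 7.43e-07). In WT-HFD mice Egr2 was at 1.02 at 2 d, which did not pass, and the difference from WT-chow mice passed narrowly (−1.66 ± 0.47, adjusted p = 0.0479). At 5 d Egr2 (2.85), Trib1 (2.63) and Pnpla3 (−1.75) all passed in WT-HFD mice, and the difference from WT-chow mice passed for none of the 3. Spry4 responded less in WT-HFD than in WT-chow mice at 2 d (0.41 against 1.54, difference −1.13 ± 0.24). In db/db-chow mice at 5 d neither Egr2 (0.25 ± 0.33) nor Pnpla3 (0.63 ± 0.23) passed, and the differences of −2.97 ± 0.52 (adjusted p = 0.00111) and 2.35 ± 0.36 (adjusted p = 4.81e-05) passed. Of the 18 lipogenic genes 5 at 2 d and 7 at 5 d responded more positively in db/db-chow than in WT-chow mice, and none more negatively. The db/db-chow mice also differed from the WT-chow mice in strain (C57BLKS/J and C57BL/6) and, by the methods, in supplier and chow product. Genotype, strain, supplier and chow product therefore cannot be told apart in the db/db-chow comparison.

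**Figure D5:**
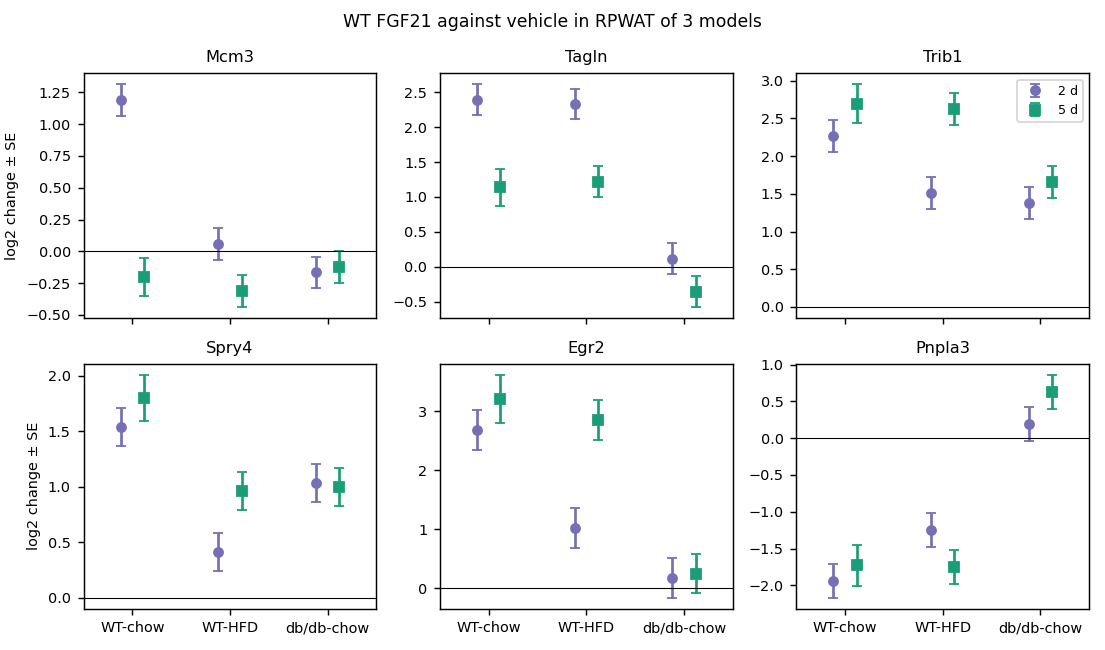
Log2 change ± SE under WT FGF21 against vehicle (vertical axes) at 2 d (circles) and 5 d (squares) in the RPWAT of the 3 models (horizontal axes: WT-chow, then WT-HFD, then db/db-chow) for 6 genes. Mcm3 rises only in WT-chow mice at 2 d (1.19), Tagln at 2 d in both wild-type models (2.39 and 2.33), and Pnpla3 falls in both wild-type models and lies above 0 in db/db-chow mice.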

How the data were processed

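RNA from RPWAT was measured by the authors on custom Affymetrix arrays, 1 array per mouse. The deposited values are linear probe set intensities that the authors normalized by RMA; the normalization software's version is not given in the sources used here. The log2 of these intensities was analysed with limma 3.58.1 in R 4.3.3: group means of all 114 RPWAT arrays (24 groups), empirical Bayes with a trend, and Benjamini-Hochberg adjustment over 43681 probe sets. The study used 1-way ANOVA for single comparisons, kept here as an alternative without its detection filter, and N-way ANOVA across treatments and models, not used here. A gene was represented by its probe set with the highest mean (30976 probe sets named, 22163 genes), with symbols updated through RefSeq. Columns of 354 arrays of other depots and tissues were not used. Array number limits precision, most of all with 3 vehicle mice at 5 d. The arrays are labelled as replicates. The p values rest on the spread between mice within all 24 groups of the 114 RPWAT arrays, not on that of the compared mice alone. On simulated data, limma recovered 60 of 67 log2 changes of 1 at 2 d and 58 of 67 at 5 d, and 35 and 20 of 67 changes of 0.5.

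The genes, lists and comparisons were chosen with earlier results of these data known. Named were, per day, the 10 largest rises and falls among called genes whose groups did not overlap, up to 4 called members of a list (or its brightest member), up to 5 genes per difference and the called genes of 2 lists of the study; not all are printed. Other genes, among them all list members given with values that did not pass, were chosen after their values were seen. For 16 named genes at 2 d and 21 at 5 d another probe set had a different call, none of them an opposite one. Beyond those described above, a dimmer probe set did not pass for Adgre1, Ccl9, Col4a2, Mt2, Ogdh, Rsad2 and Xbp1 at 2 d. The same held for Hsp90ab1, Lipe and Mt2 at 5 d. Alternatives were other samples in the fit, quantile normalization, a filter on dim probe sets, no fold threshold, array weights, a replicate block, the mean of a gene's probe sets and leaving out each array.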

Additional observations from a re-analysis of the deposited data

Results flagged for a closer look

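Of 318 groups tested for a lone array, 19 had one far from the others; chance sets apart about 1 in 20 groups. In WT FGF21 mice at 2 d these were replicate 4 for Mcm3 (7.61), S1pr3 (10.001), Pccb (10.95) and the endothelial marker mean (9.22), and replicate 5 for Itgad (8.74), Nr1d1 (10.56) and the smooth muscle marker mean (9.78). In WT FGF21 mice at 5 d they were replicate 1 for Tagln (9.94), replicate 2 for Flt1 (10.03), Mt2 (11.01) and Snhg7 (6.32), replicate 3 for Dusp4 (8.94), and replicate 4 for Auh (10.4), Mcm5 (5.6), Vwa3a (7.36) and the skeletal muscle marker mean (10.58). Among vehicle mice at 2 d they were replicate 2 for Lipe (11.52) and the kidney and adrenal marker mean (4.47), and replicate 5 for Slc25a1 (10.87).

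Responses that differed between days by the test, as the 5 d minus the 2 d response, were led by Snx2 (−0.92), Mcm4 (−0.89), Mcm3 (−1.39), Uhrf1 (−1.68) and Ostc (−0.76). Snx2, a sorting nexin, was at 0.60 at 2 d and −0.32 at 5 d, and Ostc, a subunit of the oligosaccharyltransferase, at 0.27 and −0.49. Between WT-HFD and WT-chow mice at 2 d the leading differences were those of Snx2 (−0.76), Npl (−1.57), Mcm3 (−1.13), Fam214a (1.44) and Id1 (1.18). Npl, a sialic acid lyase, was at 1.31 in WT-chow and −0.26 in WT-HFD mice, while Id1, an inhibitor of helix-loop-helix factors, was at −0.21 and 0.97. At 5 d only Vwa3a passed (−1.49), from 0.96 in WT-chow to −0.53 in WT-HFD mice.

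Between db/db-chow and WT-chow mice the leading differences at 2 d were those of Mcm3 (−1.35), Mcm4 (−0.80), Tagln (−2.28), Mcm6 (−1.41) and Mcm7 (−0.76), and at 5 d those of Cmbl (−0.61), Pnpla3 (2.35), Smad7 (−1.97), Ctif (−0.86) and Egr2 (−2.97). Smad7, an inhibitor of TGF-β signalling, was at 1.49 in WT-chow and −0.48 in db/db-chow mice at 5 d. The differences from WT-HFD and from db/db-chow mice share the WT-chow arrays.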

How the results depend on the processing

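Directions of the named called genes held under the alternatives run, except that Cd79a, a B cell gene, went from 0.50 to −0.092 at 2 d without the 2 arrays of high lymphocyte markers. Counts of called probe sets moved more, and the cause was not tested where not given. With the compared groups alone (fewer arrays for the spread) the counts were 659 at 2 d, 122 at 5 d, 200 between days, 32 and 0 against WT-HFD and 175 and 122 against db/db-chow mice at 2 d and 5 d, and 69 and 23 list members in place of 120 and 67; with WT-chow arrays only, 431 differed between days. The methods' 1-way ANOVA gave 3495 and 3107 probe sets at 2 d and 5 d, at an unadjusted p under 0.05 and at least 1.2-fold. After Benjamini-Hochberg adjustment it gave 286 and 0 at the same fold. At 5 d limma gave 5746 probe sets at an unadjusted p under 0.05 with no fold threshold, so that count is not on the ANOVA's rule. Without the 2 arrays of high lymphocyte markers, chosen after seeing the data, the counts were 850 at 2 d, 264 between days, 86 against WT-HFD and 189 against db/db-chow mice at 2 d, and 69 list members. With marker levels as covariates, also chosen after seeing the data, they were 125 and 2 against WT-HFD and 147 and 644 against db/db-chow mice. Leaving out dim probe sets gave 1093 and 2 against WT-HFD mice, and array weights 1476 and 7 against WT-HFD and 397 against db/db-chow mice at 5 d. With 1 array left out the counts spanned 1012 (WT FGF21 replicate 4) to 2135 (vehicle replicate 2) at 2 d, 429 (vehicle replicate 3) to 819 at 5 d, 303 (vehicle replicate 3 at 5 d) to 964 between days, 190 to 1135 and 0 to 3 against WT-HFD, 210 to 784 and 54 to 340 against db/db-chow mice, and 80 to 152 and 41 to 61 list members. Leaving out any 1 array cost at least once the call of 38 of 121 named genes at 2 d and 48 of 84 at 5 d; the compared groups alone cost 43 and 53 of these calls, and the adjusted 1-way ANOVA 74 and all 84. Same-numbered mice had correlated deviations of −0.39 to 0.16 over 5 pairs at 2 d, and of −0.144 and 0.204 at 5 d. Differently numbered mice spanned −0.369 to 0.261 at 2 d and −0.491 to 0.554 at 5 d. So few pairs cannot decide whether the numbers pair the mice. With the replicate number as a block the counts were 1643, 873, 760, 609, 0, 402 and 172 in the order 2 d, 5 d, between days, WT-HFD and db/db-chow at 2 d and 5 d each. Quantile normalization shifted the median of all probe sets by at most 0.0163 in size.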
